A study of Homo sapiens with 11 samples.

Results

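Axon guidance genes encode the secreted and membrane-bound cues that steer growing nerve fibres and migrating cells, together with the receptors that read those cues. The genes described here were chosen by gene symbol alone, as the ephrins and Eph receptors, the semaphorins, plexins and neuropilins, the Slits and Robo receptors, and the netrins and UNC5 receptors. The rule found 165 of the 54675 probe sets on the array, and these covered 65 of 19775 named genes. A probe set was counted as detected when any array placed it at its 60th percentile or higher, a level between 5.67 and 5.72 on the log2 scale, and by that measure 88 probe sets of 53 genes were detected. Each gene was then represented by its detected probe set with the widest interquartile range over all arrays.

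All arrays came from A673sh, a line of the Ewing sarcoma cell A673 that carries a doxycycline-inducible short hairpin RNA against the fusion oncogene EWS-FLI1, and whose label also gives EWS-FLI1 in the field for the cell line. The cells were transiently transfected with 1 of 5 plasmids. pRS-sh-scrambled (a control hairpin) and pRS-sh-FOXO1 (a hairpin against the endogenous FOXO1 transcription factor) were each used without doxycycline and with doxycycline for 48 h after transfection, with 2 arrays in each of these 4 groups. The pCDNA3 empty vector, FLAG-FOXO1-AAA (called AKT-resistant FOXO1 here because the AKT phosphorylation sites are changed) and FLAG-FOXO1-S249A/S298A (CDK2-resistant FOXO1) were measured on 1 array each, without doxycycline. This gave 11 Affymetrix arrays in 7 groups. The labels do not say whether the 2 arrays of a group came from separate cultures, so p-values measure only the spread between these arrays. All groups share 1 cell line and 1 inducible hairpin, none received doxycycline without that hairpin, and an effect of doxycycline itself cannot be told apart from EWS-FLI1 knockdown. All sh-FOXO1 arrays carry the label of 1 plasmid, and other effects of its hairpin cannot be told apart from silencing of FOXO1.

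In background, class 3 semaphorins are secreted and bind a neuropilin, which passes the signal on through a plexin, whereas most other semaphorins bind plexins directly. Ephrins and Eph receptors both sit in the membrane and signal between touching cells. Slits act through Robo receptors, usually as repellents, and netrins repel growing fibres through UNC5 receptors. EWS-FLI1 is the transcription factor that drives Ewing sarcoma, and FOXO1 is a forkhead transcription factor held out of the nucleus when AKT phosphorylates it.

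The targeted genes matched the labels. FLI1 measured 8.84 and 8.71 in sh-scrambled cells, 6.92 and 6.93 with doxycycline, 8.84 and 8.56 in sh-FOXO1 cells, and 7.17 and 7.25 with doxycycline. FLI1 fell by 1.85 (log2, SE 0.10, limma adjusted p = 1.6e-06) with doxycycline in sh-scrambled cells and by 1.49 in sh-FOXO1 cells, and FOXO1 was lower in sh-FOXO1 than in sh-scrambled cells by 1.44 with doxycycline and 0.95 without it. FOXO1 itself rose by 1.36 with EWS-FLI1 knockdown in sh-scrambled cells and by 0.86 in sh-FOXO1 cells. In doxycycline-treated sh-FOXO1 cells it measured 5.76 and 5.75, near the 5.86 and 5.81 of sh-scrambled cells without doxycycline, so its transcript was reduced there but not absent. The FOXO1 level was 5.84 with the empty vector, 8.30 with AKT-resistant and 7.06 with CDK2-resistant FOXO1. Of 7 Ewing sarcoma markers, 6 were detected on all 11 arrays (GLI1 on 10), and none of the 4 blood or 5 epithelial markers measured was detected on any. On all 11 arrays, 1 of 5 endothelial, 3 of 5 neuronal and 0 of 4 skeletal muscle markers were detected (the muscle marker DES on 10). The summed log2 level of the endothelial markers was 25.1 to 25.5 in sh-scrambled cells and 27.3 to 27.9 with doxycycline, and 27.2 to 27.4 and 29.0 to 29.7 in sh-FOXO1 cells. The neuronal sum was 33.4 to 33.7 and 36.8 to 37.0 in sh-scrambled cells, and 35.5 to 35.6 and 38.0 to 38.3 in sh-FOXO1 cells. The Ewing sarcoma sum was 68.6 to 68.7 and 57.8 to 58.2 in sh-scrambled cells, and 69.3 to 70.2 and 58.3 to 58.5 in sh-FOXO1 cells. Of the endothelial markers PECAM1 was detected on 11 arrays, TEK and KDR on 6 each, and CDH5 and VWF on none, and in sh-scrambled cells the means without and with doxycycline were 4.13 and 6.53 for KDR, 5.92 and 5.77 for TEK, and 5.85 and 5.89 for PECAM1. Of the neuronal markers GAP43 (7.07 and 10.9), SYT1 (9.94 and 9.30) and SNAP25 (6.38 and 6.59) were detected on 11 arrays, RBFOX3 (5.86 and 5.67) on 6 and STMN2 on none. In sh-FOXO1 cells the same means were 6.23 and 8.1 for KDR, 5.80 and 5.70 for TEK, and 5.96 and 6.01 for PECAM1. There GAP43 had 8.80 and 12.1, SYT1 10.3 and 9.38, SNAP25 6.53 and 6.74, and RBFOX3 5.72 and 5.72. The arrays measured whole cultures, so a larger share of cells with a transcript and more of it per cell cannot be told apart, and the part of these markers in the results below was not tested.

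The axon guidance families differed in how many members were detected. Both neuropilins, all 3 Slits, all 4 Robo receptors and all 8 ephrins measured were detected, as were 16 of 20 semaphorins, 7 of 9 plexins, 9 of 13 Eph receptors, 3 of 4 UNC5 receptors and 1 of 2 netrins. The 12 genes with no detected probe set were EPHA5, EPHA6, EPHB1, EPHB6, NTN4, PLXNA2, PLXNB3, SEMA3B, SEMA3D, SEMA3E, SEMA3G and UNC5D. Some probe set was detected on all 11 arrays for 35 genes. By contrast, the probe sets used for NRP2, PLXNA4, PLXNC1, SEMA3A and UNC5C were detected on the 4 arrays with doxycycline alone, so these 5 probe sets entered the comparisons through the groups in which they were high. SEMA3A and NRP2 had other probe sets that were detected on 11 and 7 arrays. Without doxycycline the probe set used for NRP2 lay below the lower quartile of all probe sets (4.07 to 4.10) on 7 of 7 arrays, and those used for PLXNC1 and SEMA3A on 6 of 7. The size of the fold changes of these 3 therefore rests on values from the dim end of the array.

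The first question was which axon guidance genes changed when EWS-FLI1 was knocked down in control (sh-scrambled) cells. A gene was called when limma, fitted to 12326 detected genes, gave an adjusted p under 0.05 and the log2 fold change passed 1, that is, 2-fold. Of the 53 genes, 11 rose, none fell and 42 were not called. For 5 of the 11 (NRP2, PLXNA4, PLXNC1, SEMA3A and UNC5C) the probe set used passed the detection filter on the doxycycline arrays alone. A rise of these 5 was partly built into the filter, and the counts and medians given here include them. Among all genes tested, 8.10% were called higher and 7.49% lower. The median log2 fold change of the axon guidance genes was 0.31, against -0.06 over all genes. With the adjusted p alone and no fold limit, 29 of the 53 were higher and 7 lower, beside 26.1% and 35.0% of all genes. The genes that rose were both neuropilins (NRP1, NRP2), 2 of 7 plexins (PLXNC1, PLXNA4), 3 of 16 semaphorins (SEMA3A, SEMA3C, SEMA6D), 1 of 8 ephrins (EFNA1), 1 of 9 Eph receptors (EPHA4), 1 of 4 Robo receptors (ROBO1) and 1 of 3 UNC5 receptors (UNC5C). In sh-FOXO1 cells the same knockdown gave 9 genes called higher, 3 lower and 41 not called, beside 7.27% and 6.38% of all genes, with a median of 0.18 against -0.07. All 9 genes that rose there also rose in sh-scrambled cells. They include the same 5 genes whose probe set used was detected with doxycycline alone. EPHA4 and SEMA3C were called in sh-scrambled cells alone, and SLIT2, ROBO2 and NTN1 were called lower in sh-FOXO1 cells alone. Of these 5 genes, ROBO2 was the one for which the difference between the responses was itself called, and with the replicate number as a block that of SEMA3C (-0.81, limma adjusted p = 0.0029) and SLIT2 (-0.73, adjusted p = 0.014) was called too. The difference was also called on the brightest SEMA3C probe set (-0.97) and for SLIT2 under the settings named with the interaction.

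**Figure D1:**
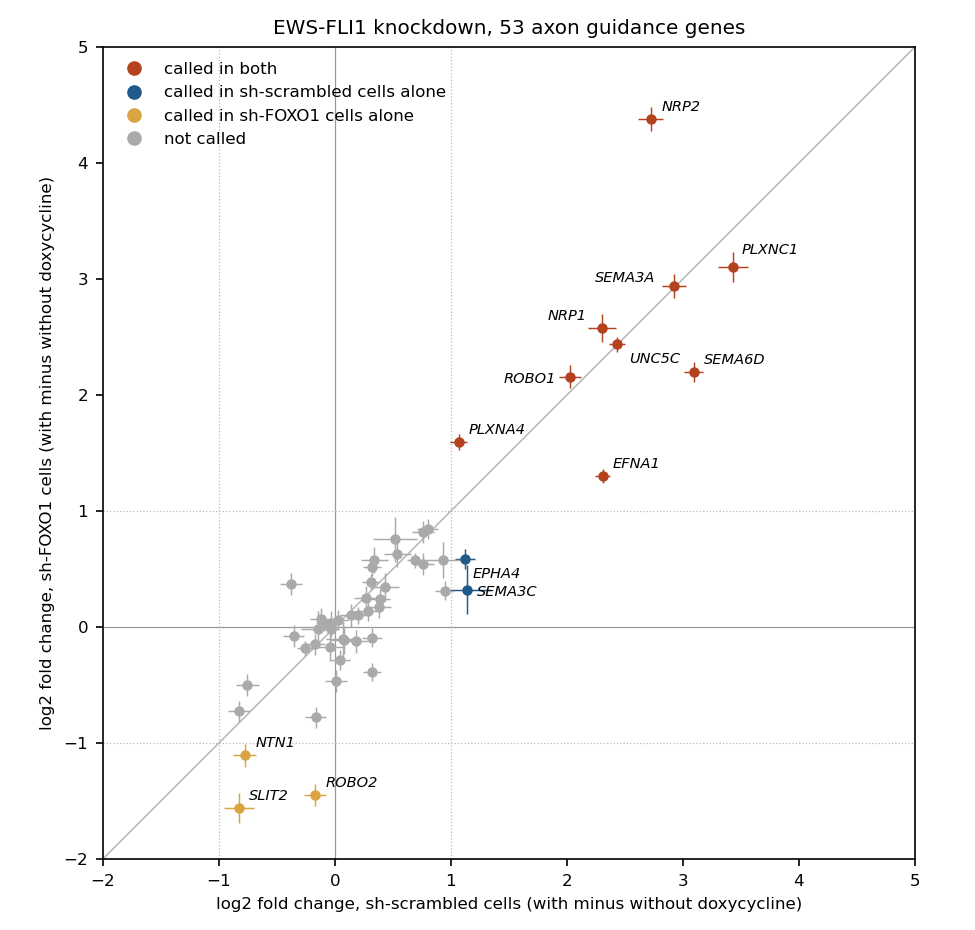
Log2 fold change of 53 axon guidance genes with EWS-FLI1 knockdown, measured in sh-scrambled (x axis) and sh-FOXO1 cells (y axis), 2 arrays in each group. Bars are limma standard errors, dotted lines mark the limit of 1, the diagonal marks equal change, and colours show in which cells a gene was called. The 9 genes called in both lie at the upper right, with NRP2 above the diagonal and EFNA1 and SEMA6D below it.

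NRP1 and NRP2 are the co-receptors that bind class 3 semaphorins, and also bind forms of VEGF. NRP2 measured 3.82 and 3.78 in sh-scrambled cells, 6.44 and 6.61 with doxycycline, 3.77 and 3.83 in sh-FOXO1 cells, and 8.04 and 8.32 with doxycycline. This probe set was detected with doxycycline alone, so the filter itself placed the 4 arrays with doxycycline above all others. Among these 4 the sh-FOXO1 arrays were the highest. The probe set was also chosen for the widest interquartile range, and its fold changes were the largest among the 7 detected NRP2 probe sets. The log2 fold change with knockdown was 2.72 (SE 0.11, limma adjusted p = 2.8e-07) in sh-scrambled cells and 4.38 (SE 0.11, adjusted p = 4.7e-08) in sh-FOXO1 cells. NRP1 measured 5.77 and 6.18 in sh-scrambled cells, 8.25 and 8.30 with doxycycline, 6.71 and 6.72 in sh-FOXO1 cells, and 9.28 and 9.30 with doxycycline. Its groups did not overlap with either hairpin. With knockdown it rose by 2.30 on the log2 scale in sh-scrambled cells, and by 2.58 in sh-FOXO1 cells (SE 0.12 for both). A second NRP1 probe set gave smaller values, 0.65 (short of the limit) and 1.20.

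NRP2 had 7 detected probe sets, the most of any axon guidance gene. The 6 not used were all higher with knockdown, by 0.23 to 1.80 in sh-scrambled cells, where 3 were called, and by 0.60 to 2.69 in sh-FOXO1 cells, where 4 were called. All 6 were also higher in sh-FOXO1 than in sh-scrambled cells under doxycycline, by 0.34 to 1.08, and 4 of them were called. The direction did not depend on the probe set, while the size did. SEMA3A and SEMA6D, with 3 and 4 detected probe sets, also rose by different amounts on different probe sets.

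**Figure D2:**
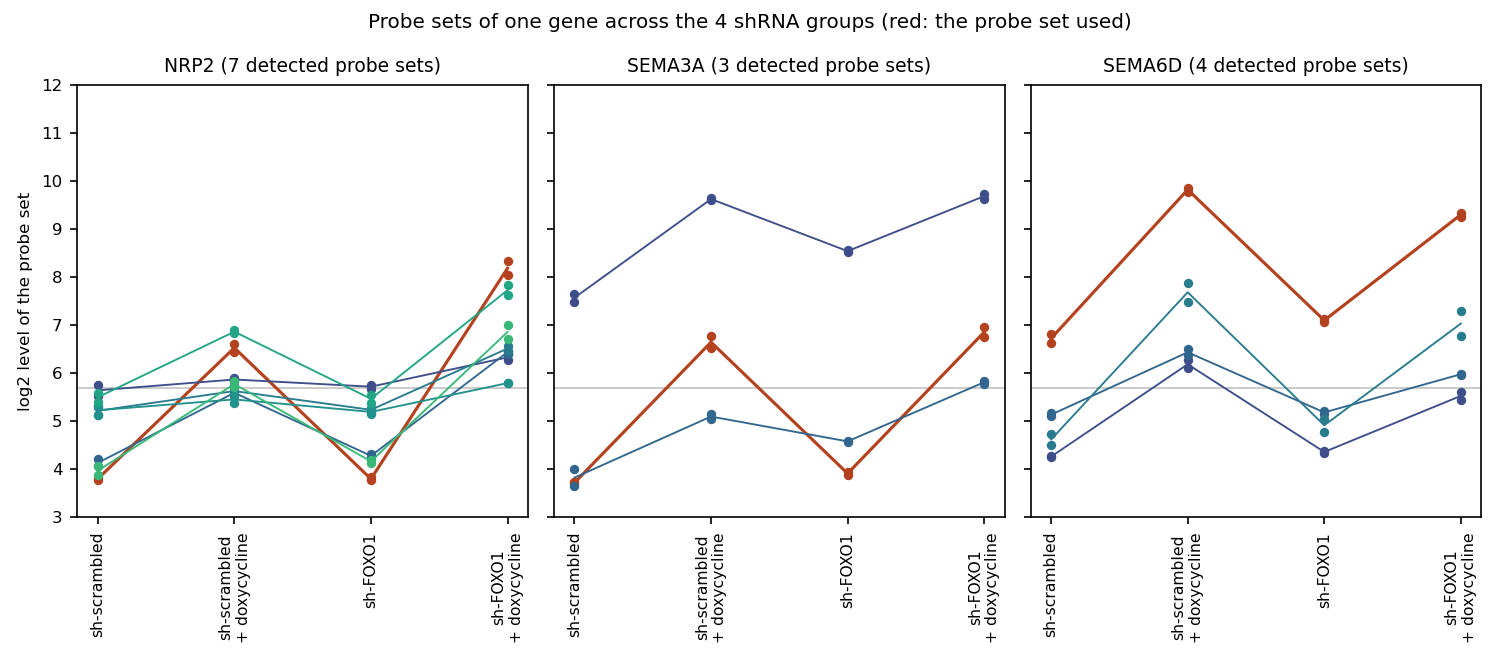
Log2 level of each detected probe set of NRP2, SEMA3A and SEMA6D (y axis) in the 4 shRNA groups (x axis). Points are single arrays, lines join group means, the probe set used is red, and the grey line is the detection level near 5.7. All probe sets of a gene were higher with doxycycline than without it with both hairpins, and they differed in level and in the size of the change.

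Plexins transduce semaphorin signals across the membrane. PLXNC1, the receptor of SEMA7A, measured 3.93 and 3.77 in sh-scrambled cells, 7.19 and 7.38 with doxycycline, 3.89 and 4.05 in sh-FOXO1 cells, and 6.92 and 7.24 with doxycycline. The arrays with and without doxycycline were separated by more than any spread within a group. This probe set was detected with doxycycline alone, so the filter itself placed the arrays with doxycycline higher. The log2 fold changes, from a level near the array's floor, were 3.43 (SE 0.13, limma adjusted p = 2e-07) and 3.10 (SE 0.13). PLXNA4, which works with neuropilins as a receptor for class 3 semaphorins, rose by 1.07 (SE 0.07) and 1.60 (SE 0.07). Its probe set too was detected with doxycycline alone. The other 5 plexins were not called with either hairpin. On the probe sets used these 5 had log2 fold changes above 0 in both, from 0.20 and 0.10 upward, where the medians over all genes were -0.06 and -0.07. PLXND1 had the lowest of these values, and its second probe set gave 0.05 and -0.01. The sign of PLXNC1 and PLXNA4 was partly built into the filter. PLXNA3 (0.94), PLXNA1 (0.76) and PLXNB2 (0.76) had an adjusted p under 0.05 in sh-scrambled cells without passing the limit of 1.

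Among the semaphorins, SEMA3A, a secreted repellent that signals through NRP1 and A-type plexins, measured 3.71 and 3.73 in sh-scrambled cells, 6.52 and 6.76 with doxycycline, 3.88 and 3.94 in sh-FOXO1 cells, and 6.75 and 6.96 with doxycycline. It rose by 2.92 (SE 0.10, limma adjusted p = 1.6e-07) and 2.94 (SE 0.10). On its brightest probe set, detected on all 11 arrays, the rise was smaller, 2.05 in sh-scrambled cells but 1.14 in sh-FOXO1 cells. SEMA6D, a transmembrane semaphorin, measured 6.63 and 6.82 in sh-scrambled cells, 9.77 and 9.86 with doxycycline, 7.12 and 7.07 in sh-FOXO1 cells, and 9.25 and 9.33 with doxycycline, and so rose by 3.09 (SE 0.08) and 2.20 (SE 0.08). SEMA3C, a secreted semaphorin, rose by 1.14 (SE 0.21, adjusted p = 0.0018) in sh-scrambled cells, a call that was lost without sh-scrambled replicate 1 or without doxycycline-treated replicate 2 (0.96 in both). Its second probe set rose by 1.60. In sh-FOXO1 cells SEMA3C stood at 0.32 and was not called. The other 13 semaphorins were not called with either hairpin. Their values ran from -0.83 for SEMA4D and -0.75 for SEMA3F to 0.95 for SEMA4B in sh-scrambled cells.

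EFNA1, a membrane-anchored ligand of EphA receptors, was the one ephrin called with knockdown. It measured 6.13 and 6.09 in sh-scrambled cells, 8.40 and 8.43 with doxycycline, 6.34 and 6.35 in sh-FOXO1 cells, and 7.66 and 7.64 with doxycycline. Every array with doxycycline was above every array without it, and the sh-scrambled arrays were the higher of these. The rise was 2.31 (SE 0.06, limma adjusted p = 4.8e-08) and 1.30 (SE 0.06, adjusted p = 1.1e-06). EFNA5, another EphA ligand, came closest to a call, at 0.80 and 0.84. Of the Eph receptors, EPHA4 alone was called, at 1.12 (SE 0.09, adjusted p = 1.1e-05) in sh-scrambled cells. Its 3 other probe sets gave 0.48 to 0.60 there and none was called. In sh-FOXO1 cells EPHA4 stood at 0.59 and no Eph receptor was called. There 7 of 9 had values below 0, from EPHA3 at -0.78 to EPHA10 at -0.02 and EPHB3 at -0.01, where the median over all genes was -0.07.

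ROBO1 and ROBO2 are the main neuronal receptors of the Slits. ROBO1 measured 9.07 and 9.33 in sh-scrambled cells, 11.2 and 11.3 with doxycycline, 8.96 and 8.97 in sh-FOXO1 cells, and 11.1 and 11.2 with doxycycline, and rose by 2.03 and 2.16 (SE 0.10 for both). ROBO2 measured 6.15 and 6.40 in sh-scrambled cells, 6.16 and 6.04 with doxycycline, 7.01 and 7.12 in sh-FOXO1 cells, and 5.64 and 5.60 with doxycycline. With and without doxycycline its sh-scrambled arrays overlapped, whereas its sh-FOXO1 arrays were above the sh-scrambled arrays without doxycycline and below them with it. The log2 fold change was -0.17 in sh-scrambled cells and -1.45 (SE 0.10, limma adjusted p = 6.5e-06) in sh-FOXO1 cells, where the second ROBO2 probe set was also called, at -1.57. The 2 receptors therefore moved in opposite directions in sh-FOXO1 cells. ROBO3 and ROBO4 were not called.

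SLIT2, a secreted ligand of both, measured 7.71 and 8.02 in sh-scrambled cells, 7.02 and 7.06 with doxycycline, 8.52 and 8.37 in sh-FOXO1 cells, and 6.74 and 7.04 with doxycycline. The arrays with doxycycline were below those without it with both hairpins. The change passed the limit only in sh-FOXO1 cells, at -1.56 (SE 0.13, limma adjusted p = 2.2e-05), and stood at -0.83 (adjusted p = 0.00074) in sh-scrambled cells. Both other SLIT2 probe sets were called in sh-FOXO1 cells, at -1.27 and -1.18. NTN1, the netrin ligand, had -1.11 (SE 0.10, adjusted p = 3.6e-05) in sh-FOXO1 and -0.78 in sh-scrambled cells. UNC5C, a repulsive netrin receptor, measured 5.26 and 5.30 in sh-scrambled cells, 7.73 and 7.70 with doxycycline, 5.35 and 5.33 in sh-FOXO1 cells, and 7.74 and 7.81 with doxycycline. It rose by 2.43 and 2.44 (SE 0.07 for both), while UNC5A and UNC5B were not called.

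**Figure D3:**
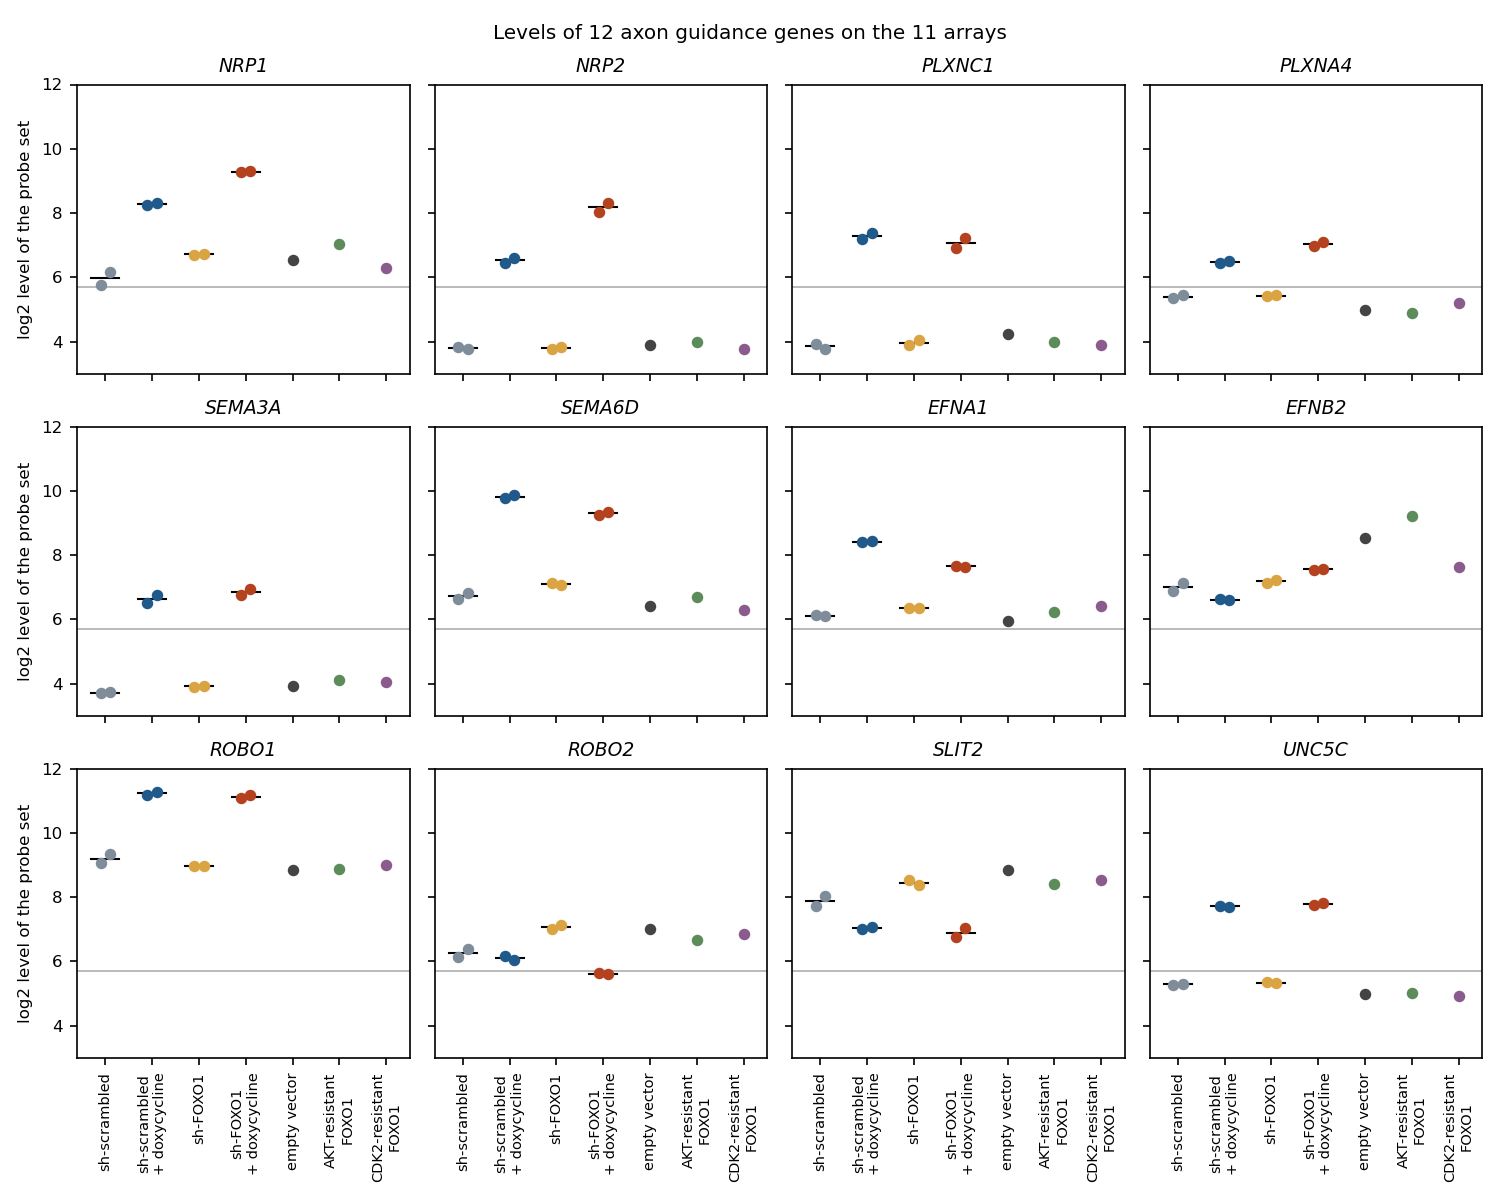
Log2 level of 12 axon guidance genes (y axis, 1 panel a gene) in the 7 groups (x axis). Points are single arrays, black bars are the means of 2 arrays, and the grey line is the detection level near 5.7. The probe sets used for NRP2, PLXNC1, PLXNA4, SEMA3A and UNC5C pass the grey line with doxycycline alone. The one used for ROBO2 falls below it in sh-FOXO1 cells with doxycycline.

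The second question was what silencing of FOXO1 did once EWS-FLI1 was low. For this and the remaining comparisons the fold limit was 0.7 on the log2 scale, or 1.62-fold. Under doxycycline, 3 axon guidance genes were called higher in sh-FOXO1 than in sh-scrambled cells, 2 lower and 48 not called, beside 3.08% and 2.37% of all genes. The 3 were NRP2, higher by 1.65 (SE 0.11, limma adjusted p = 7.1e-05), NRP1, higher by 1.01 (SE 0.12, adjusted p = 0.00081), and EFNB2, a ligand of EphB receptors, higher by 0.94 (SE 0.10, adjusted p = 0.0004). The second probe set of NRP1 was called too, at 0.74. EFNB2 measured 6.64 and 6.59 in sh-scrambled and 7.53 and 7.58 in sh-FOXO1 cells, and its second probe set gave 0.55, short of the limit. EPHA7, an EphA receptor, measured 6.60 and 6.42 against 5.53 and 5.58 and was lower by 0.95 (log2 fold change -0.95, SE 0.09, adjusted p = 0.00032). EFNA1 was lower as well (-0.77, SE 0.06, adjusted p = 0.00018). The arrays of the 2 groups did not overlap for any of the 5. With 2 arrays a group this sets them little apart, since ROBO1 (-0.10) and SEMA4C (0.04), neither called, did not overlap either. Just short of a call stood EFNB3 at -0.70 and SEMA3C at -0.66 (adjusted p = 0.051). The second probe set gave 0.04 for EFNB3 and -0.70 for SEMA3C, neither called. On the probe sets used none of the 7 plexins and 16 semaphorins was called, with values from -0.66 to 0.56. Another SEMA3A probe set was called higher, at 0.71.

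Without doxycycline, 2 axon guidance genes were called higher after FOXO1 silencing, none lower and 51 not called, beside 3.45% and 2.33% of all genes. With limma, 23 of the 53 had an unadjusted p under 0.05, beside 40.8% of all genes. ROBO2 was higher by 0.79 (SE 0.10, limma adjusted p = 0.00092) and NRP1 by 0.74 (SE 0.12, adjusted p = 0.0031). Both calls were lost without sh-scrambled replicate 1 (0.67 and 0.53), which stood below replicate 2 for both genes. EFNA5 was then called lower, at -0.73. Without sh-scrambled replicate 2, SLIT2 was called as well, at 0.74 against 0.58 with all arrays. The second ROBO2 probe set was called at 0.80, and the second NRP1 probe set stood at 0.18. The probe set used for NRP2 had a mean of 3.80 in each group, near the array's floor, and the NRP2 probe set detected on 7 arrays had means of 5.64 without and 5.72 with sh-FOXO1. SEMA3A, at 0.19 on the probe set used, was called higher on both of its other probe sets, at 0.75 and 0.97.

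Whether the response to EWS-FLI1 knockdown differed between sh-FOXO1 and sh-scrambled cells was tested as an interaction, the knockdown log2 fold change in sh-FOXO1 cells minus that in sh-scrambled cells. For FLI1 itself this difference was 0.37 (limma adjusted p = 0.17), which was not called, and its part in these results was not tested. For 2 axon guidance genes the difference was called above 0 and for 4 below 0, beside 1.46% and 2.45% of all genes. The response of NRP2 was larger in sh-FOXO1 cells by 1.66 (SE 0.15, limma adjusted p = 0.00074), and the 6 other NRP2 probe sets gave 0.37 to 0.90, of which 3 were called. Without doxycycline the NRP2 probe set used stood at a mean of 3.80 with both hairpins, near the array's floor. Its interaction therefore repeats the difference of 1.65 between the hairpins under doxycycline. ROBO2 had a difference of -1.28 (SE 0.14, adjusted p = 0.0016), and its second probe set -1.20. For EFNA1 the difference was -1.01 (SE 0.09, adjusted p = 0.00069), and for SEMA6D -0.89 (SE 0.12, adjusted p = 0.0045), so both rose less in sh-FOXO1 cells. The 3 other SEMA6D probe sets gave -0.94 to -0.50, of which 1 was called. EFNB2 had knockdown values of -0.38 in sh-scrambled cells but 0.37 in sh-FOXO1 cells, neither called, and the difference of 0.75 (SE 0.13, adjusted p = 0.015) was called. This call was lost without either sh-scrambled array with doxycycline, sh-scrambled replicate 2, sh-FOXO1 replicate 1 or the doxycycline-treated sh-FOXO1 replicate 2, with values from 0.62 to 0.77. The second EFNB2 probe set gave a difference of 0.30 and was not called. EPHA2, an EphA receptor that binds EFNA1, had a difference of -0.71 (SE 0.11, adjusted p = 0.0086), and its call ended without replicate 2 of sh-scrambled, of sh-FOXO1 or of doxycycline-treated sh-FOXO1 cells, or without replicate 1 of doxycycline-treated sh-scrambled cells (-0.62 to -0.70). For SEMA3A the probe sets did not give the same answer. The one used showed 0.02 and the brightest -0.91, which was called, since on that probe set the sh-FOXO1 cells already stood at 8.51 and 8.56 without doxycycline against 7.48 and 7.65 in sh-scrambled cells. The brightest probe sets of SEMA3C (-0.97) and EPHA3 (-0.83) were also called where the ones used were not (-0.81, adjusted p = 0.15, and -0.62). SLIT2 missed the call at -0.73 (adjusted p = 0.053) and was called with quantile normalization (adjusted p = 0.039), median centring (0.033), an intensity trend (0.043) and a replicate block (0.014), and without sh-scrambled replicate 2 (0.024).

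**Figure D4:**
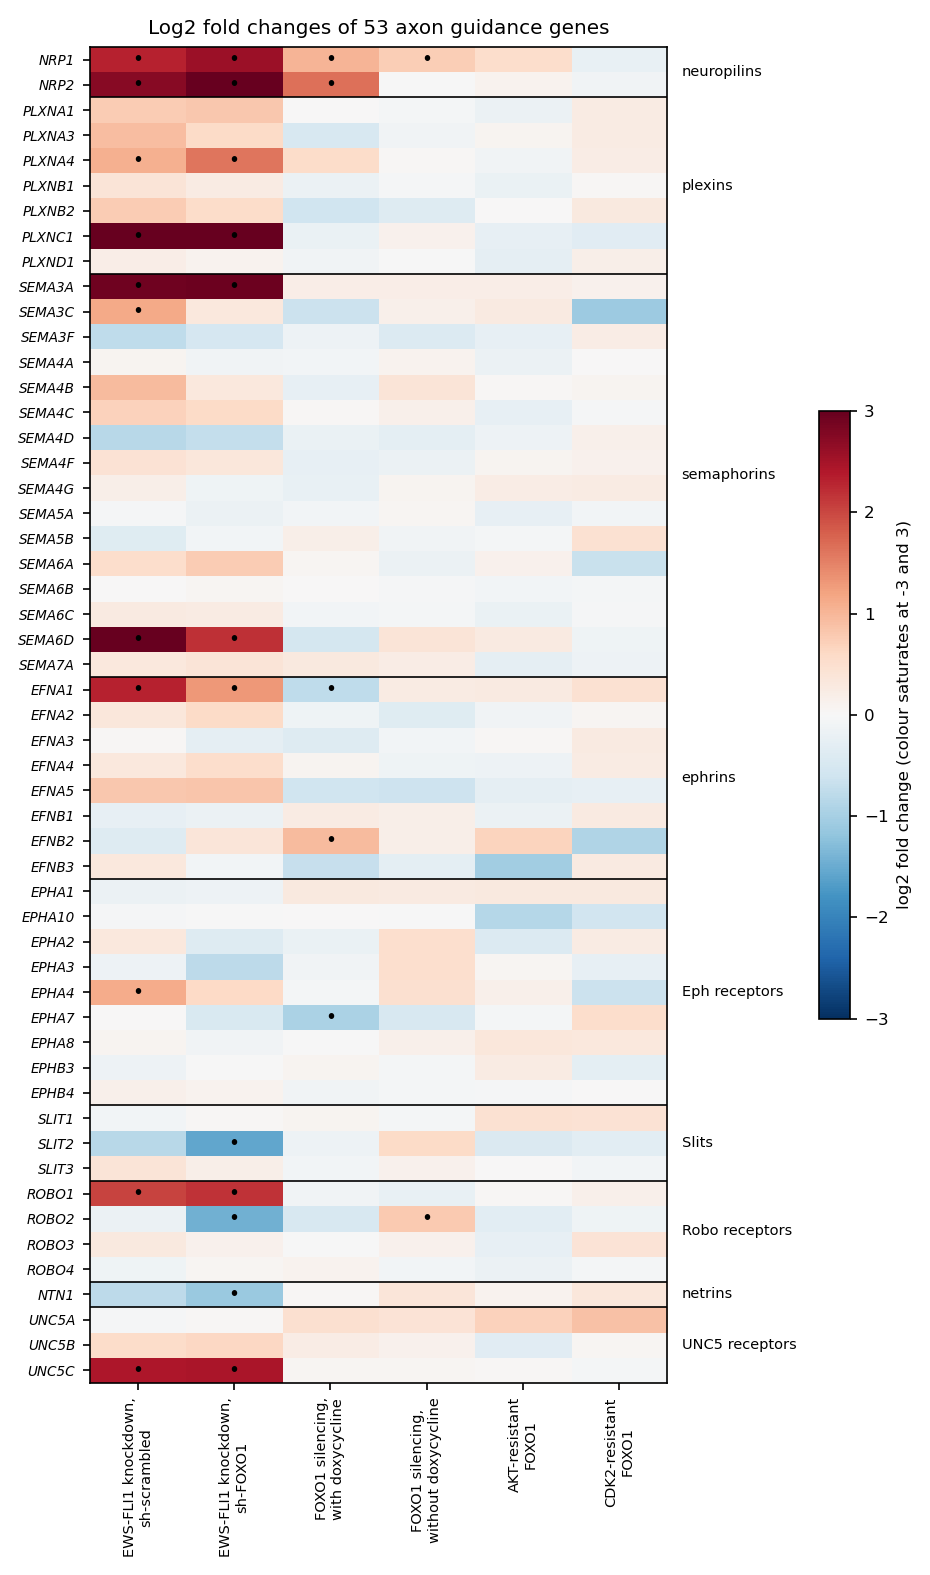
Log2 fold change (colour) of 53 axon guidance genes (rows, by family) in 4 limma comparisons and with 2 FOXO1 mutants against the empty vector (columns). Dots mark calls, which were made in the limma comparisons alone. NRP1 has the most dots with 4, NRP2 and EFNA1 have 3 each, and the mutant columns show few values past 0.7.

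With the FOXO1 mutants there was 1 array a group, so the values below are differences between single arrays with no test. AKT-resistant FOXO1 left none of the 53 genes more than 0.7 above the empty vector and 2 more than 0.7 below it, beside 1.69% and 1.51% of all genes. The 2 were EFNB3, an EphB ligand, at 6.61 with the empty vector and 5.56 with the mutant (-1.04), and EPHA10, an Eph receptor, at 5.95 and 5.10 (-0.85). The second probe set of EFNB3 gave -0.19, and the undetected EPHA10 probe set that is chosen with no filter -0.01. EFNB2 was at 0.67, and at 0.78 on its second probe set. CDK2-resistant FOXO1 had 1 gene past the limit above and 2 below, beside 1.73% and 1.54% of all genes. UNC5A, a netrin receptor, went from 5.40 to 6.28 (0.88), SEMA3C from 6.14 to 5.04 (-1.10, but -0.40 on its brightest probe set) and EFNB2 from 8.54 to 7.63 (-0.91, with -0.68 on its second probe set). Of these values, UNC5A with the empty vector, SEMA3C with CDK2-resistant FOXO1, and EFNB3 and EPHA10 with AKT-resistant FOXO1 were below the detection level. No gene passed the limit the same way with both mutants. UNC5A (0.69 with AKT-resistant and 0.88 with CDK2-resistant FOXO1) and EPHA10 (-0.85 and -0.58) moved the same way with both and missed the limit with 1. The probe sets used for NRP2, PLXNC1, SEMA3A, PLXNA4 and UNC5C were below the detection level on all 3 plasmid arrays, where the brightest SEMA3A probe set stood at 7.45, 7.73 and 7.65.

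The choice of control array changed these lists. The alternative control averaged 3 arrays without doxycycline, the empty vector array and both sh-scrambled arrays. Against it, AKT-resistant FOXO1 had 3 genes past the limit above, EFNB2 (1.70), NRP1 (0.89) and SEMA3C (0.79), and 3 below, EFNB3 (-1.59), EPHA10 (-0.85) and SEMA3F (-0.82). CDK2-resistant FOXO1 had 1, SEMA6A at -0.70, and UNC5A came to 0.52. The SEMA6A probe set used was below the detection level on all 3 plasmid arrays (5.40, 5.54 and 4.73). Against the empty vector it gave -0.67 with this mutant, and the 2 other SEMA6A probe sets, detected on all 11 arrays, gave 0.10 and -0.17. EFNB2 turned from -0.91 to 0.12 with the CDK2-resistant form, since the empty vector array stood at 8.54 and the sh-scrambled arrays at 6.87 and 7.12.

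**Figure D5:**
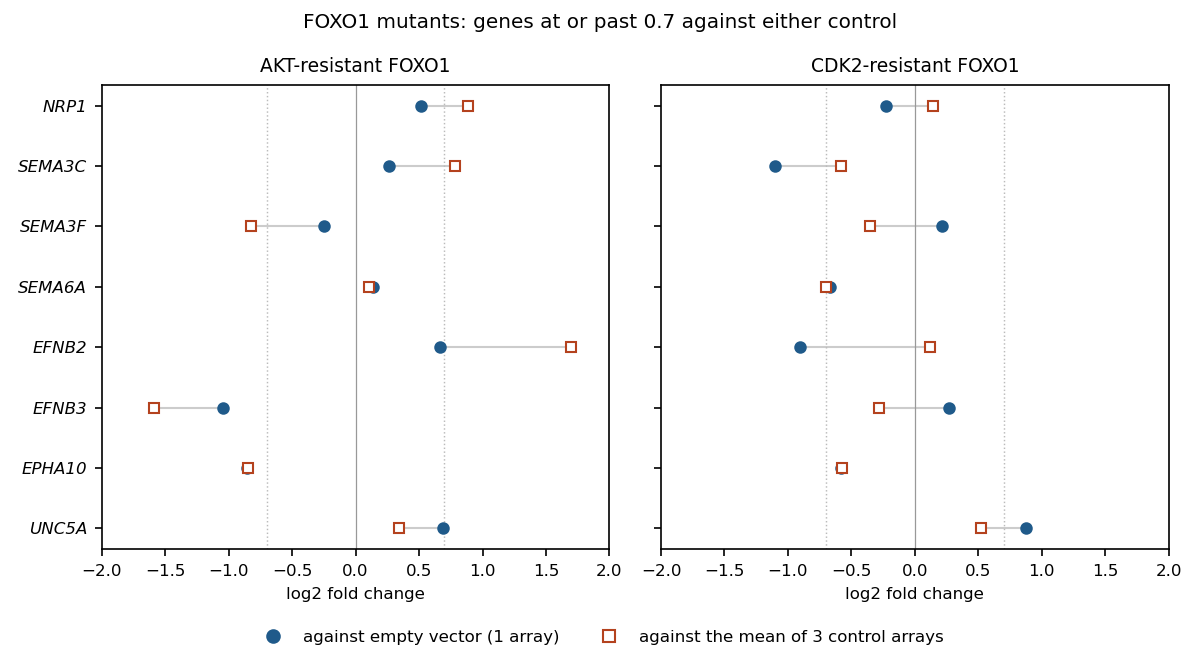
Log2 fold change (x axis) with each FOXO1 mutant for the 8 axon guidance genes at or past 0.7 (dotted lines) with either control. Filled circles are differences from the single empty vector array and open squares are differences from the mean of 3 control arrays. EFNB2 differs most between the controls, and EPHA10 and SEMA6A least.

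The wider pathway was followed through 117 further genes in 5 lists, of which 93 were detected. With EWS-FLI1 knockdown in sh-scrambled cells 14 were called higher (15.1%) and 7 lower (7.53%), beside 8.10% and 7.49% of all genes, and in sh-FOXO1 cells 15 (16.1%) and 7 (7.53%), beside 7.27% and 6.38%. The median over the 93 was 0.35 and 0.28. CXCL12, a chemokine that also guides axons, rose by 4.47 and 4.07, and its receptor CXCR4 fell by 2.90 and 2.40. L1CAM, a cell adhesion molecule that forms part of the SEMA3A receptor with NRP1, rose by 3.51 and 2.45. MICAL2, of the family of actin-oxidising enzymes that act downstream of plexins, rose by 3.28 and 3.93. Of 26 detected semaphorin effectors and co-receptors 6 rose with each hairpin, with 2 and 1 lower. Of 18 Eph effectors 1 and 3 rose, and of 12 genes in the netrin list none rose and 1 fell in each. LINGO1, a part of the Nogo receptor complex, fell by 1.97 and 1.54, DPYSL5, a collapsin response mediator, was at -1.76 and -1.38, and SLITRK5, a transmembrane protein of developing neurons, at -1.29 and -1.60, all called.

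FOXO1 silencing under doxycycline had 8 of these 93 genes called higher and 1 lower, beside 3.08% and 2.37% of all genes, and without doxycycline 7 and 2, beside 3.45% and 2.33%. ENAH, an actin regulator that binds the tail of Robo receptors, was higher by 1.74 and 1.81. CXCR4 was higher by 1.99 and 1.49, and TRIM9, a ubiquitin ligase that binds the netrin receptor DCC, by 1.78 and 1.02. SLITRK5 was lower in both (-1.35 and -1.04). L1CAM was higher by 1.24 without doxycycline, where DPYSL5 was at -0.72 and called. For the interaction, where 1.46% and 2.45% of all genes were called, 2 were called above 0, TRIM9 (0.76) and GPC1 (0.71), a heparan sulfate proteoglycan that binds Slits, and 2 below, L1CAM (-1.06, SE 0.26, limma adjusted p = 0.046) and WNT5A (-0.78), a secreted Wnt ligand.

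Promoter sequences were searched for 2 motifs on both strands, GTAAACA (forkhead) and GGAAGGAA (a pair of the GGAA repeats that EWS-FLI1 binds), in the 250 bases before each RefSeq start. The table held 87 promoters of 56 of the 65 genes. GTAAACA was in 1 of the 87 (1.15%) and in 2.98% of 35116 promoters of all genes, and GGAAGGAA in 4 of the 87 (4.60%) and in 3.06% of all. The 4 belonged to EFNA4, PLXNB1, SLIT3 and UNC5A, none of them called in a limma comparison. Neither motif occurred in the 23 promoters of the 14 called genes that the table held. The sequences of NRP2, which was called in both knockdowns and the interaction and holds neither motif, and of SEMA4B, the one promoter with GTAAACA, are shown (RefSeq, GRCh38.p14, plus strand, NRP2 at chr2:205682251-205682500 and SEMA4B at chr15:90184670-90184919), with the motif in capitals at 53 to 47 bases before the start of SEMA4B.
NRP2: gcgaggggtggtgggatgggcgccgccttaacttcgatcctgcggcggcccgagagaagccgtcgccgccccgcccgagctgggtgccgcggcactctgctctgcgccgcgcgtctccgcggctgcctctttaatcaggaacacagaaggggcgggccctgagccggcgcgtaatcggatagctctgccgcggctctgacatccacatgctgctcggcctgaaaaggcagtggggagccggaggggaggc
SEMA4B: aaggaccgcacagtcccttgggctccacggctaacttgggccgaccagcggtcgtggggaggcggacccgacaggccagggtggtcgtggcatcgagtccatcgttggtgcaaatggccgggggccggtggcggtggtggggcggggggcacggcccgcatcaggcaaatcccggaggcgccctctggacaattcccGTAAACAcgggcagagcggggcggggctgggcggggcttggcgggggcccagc
SEMA4B was not called in any limma comparison. With knockdown it stood at 0.95 in sh-scrambled cells, at 0.31 in sh-FOXO1 cells, and the difference of -0.63 (limma adjusted p = 0.017) was short of the limit.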

How the data were processed

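The deposited table holds 1 log2 value per probe set for each of 11 Affymetrix HG-U133 Plus 2 arrays, which the authors had summarised and normalized beforehand. The base 2 is taken from the range of the values (2.60 to 14.6), and the sources used here do not give the summary method. No value was rescaled. Quartiles differed little between arrays (lower 4.07 to 4.10, median 5.10 to 5.17, upper 6.94 to 7.12), and the 2 arrays of a group had Pearson correlations of 0.995 to 0.998 over probe sets. With 2 arrays in 4 groups and 1 in 3, array number limits the precision.

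The platform annotation gave 1 gene symbol for 41097 probe sets, several for 1801 and none for 11777, and only the first kind was used. Probe sets under the 60th percentile on every array were dropped, and each gene was represented by the one with the largest interquartile range. limma 3.58.1 in R 4.3.3 fitted the 7 groups together (4 residual and 3.9 prior degrees of freedom), with Benjamini-Hochberg adjustment over 12326 genes. The fit was tested on simulated data. A call needed both an adjusted p under 0.05 and a minimum change on the log2 scale, 1 for the knockdown comparisons and 0.7 for the others. The 2 FOXO1 mutants, with 1 array each, were not tested. Named genes are those called in a comparison, past 0.7 with a mutant, not detected, or with probe sets of opposite sign, and the 3 largest pathway changes each way. The genes, lists and tests were chosen with earlier results of these data known. Promoter sequences came from RefSeq (GRCh38.p14).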

Additional observations from a re-analysis of the deposited data

Results flagged for a closer look

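For 6 axon guidance genes the response to EWS-FLI1 knockdown differed between sh-FOXO1 and sh-scrambled cells by limma's interaction test, 2 above and 4 below 0, beside 1.46% and 2.45% of all genes. On the probe sets used, knockdown raised NRP2 by 1.66 more in sh-FOXO1 than in sh-scrambled cells on the log2 scale. The response of EFNB2 was higher there by 0.75. The NRP2 probe set used lay near the array's floor without doxycycline, so its interaction repeats the difference between the hairpins under doxycycline. The 6 other NRP2 probe sets gave 0.37 to 0.90, of which 3 were called. The second EFNB2 probe set gave 0.30 and was not called. The difference was -1.28 for ROBO2, which fell in sh-FOXO1 cells and was not called in sh-scrambled cells, and -1.01 for EFNA1 and -0.89 for SEMA6D, which rose in both. The 3 other SEMA6D probe sets gave -0.94 to -0.50, of which 1 was called. EPHA2, with a difference of -0.71, was called in neither knockdown taken alone. Adjusted p-values over the 6 genes, on the probe sets used, ran from 0.00069 to 0.015. The calls of EFNB2 and EPHA2 were each lost when certain single arrays were left out, with values from 0.62 to 0.77 and from -0.62 to -0.70.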

How the results depend on the processing

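Of the 36 calls in the 5 limma comparisons, all 36 were kept with quantile normalization, an intensity trend, the 8 shRNA arrays alone, the median filter, or no filter. Quantile normalization, median centring and the intensity trend each added SLIT2 to the interaction. Median centring kept 35 (EPHA2 reached -0.70) and the brightest probe set of each gene kept 34. The calls lost with the brightest probe sets were those of NRP1, at 0.65 with knockdown in sh-scrambled cells and 0.18 for FOXO1 silencing without doxycycline. With no filter NTN4, whose level never passed 5.57, was called for FOXO1 silencing with doxycycline (-1.10) and for the interaction (-1.63). With the adjusted p and no fold limit, 36 genes were called for knockdown in sh-scrambled cells, 34 in sh-FOXO1 cells, 16 and 19 for FOXO1 silencing with and without doxycycline, and 10 for the interaction, beside 61.1%, 57.5%, 27.8%, 30.3% and 7.69% of all genes. Leaving out each array in turn gave 11 to 12, 12 to 12, 5 to 7, 1 to 3 and 4 to 6 genes in the same order. For the mutants, the 3-array control mean moved the counts to 6 for AKT-resistant and 1 for CDK2-resistant FOXO1, no filter moved the latter to 5, and EFNB2 with CDK2-resistant FOXO1 reversed to 0.12. The labels do not say what replicate numbers mark. Differences between replicates 1 and 2 correlated at 0.44 to 0.62 between groups. A replicate block kept all 36 calls and gave 11, 12, 5 and 2 genes in the comparisons above, and it added SEMA3C (-0.81) and SLIT2 (-0.73) to the interaction, for 8 genes. For genes near the array's floor without doxycycline, signal over background limits the size of a fold change.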
